A study of Mus musculus with 13 samples.

Results

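A set of 10 genes that are commonly listed as transcriptional targets of p53 was followed in irradiated mouse oocytes: Ccng1, Trp53inp1, Phlda3, Zmat3, Aen, Pidd1, Ei24, Rrm2b, Ptpn14 and Pard6g. They were taken from a list of classical p53 targets, chosen with earlier results of these data known. All 10 were found among the 49585 genes to which the sequenced reads could be assigned. Ovaries of CD-1 mice at P5 were kept in culture overnight, and exposed to γ-rays of a caesium source at 0.5 Gy or 0.2 Gy. Their oocytes were released with trypsin either at 0 h, which the labels count from irradiation and the study's text also describes as taken before it, or at 1 h, 2.5 h, 4 h or 6 h after it, and RNA was taken. Pools of 4 ovaries per time point were used, and the mice carried no genetic alteration that the labels name. At 0.5 Gy there were 2 libraries each of 0, 1 and 4 h and 1 library each of 2.5 and 6 h. At 0.2 Gy there was 1 library of each time point. The labels assign replicate 1 of 0.5 Gy to a first generation, replicate 2 with the 2.5 and 6 h libraries to a second, and all 0.2 Gy libraries to the third, without saying what a generation is. Dose and generation therefore cannot be told apart between the doses. The study asked how the activation of TAp63α, the p63 isoform of oocytes, by DNA double-strand breaks changes gene expression over time and dose.

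The p53 protein and its relatives p63 and p73 share a DNA-binding domain and bind to closely related response elements, so that many genes known as p53 targets can also be reached by p63. In primordial oocytes the family member that responds to double-strand breaks is TAp63α, which is held as an inactive dimer until it is phosphorylated and assembles into an active tetramer. The genes followed here act downstream of such a signal in different ways. Some dampen growth signals or feed back on p53 itself, some take part in cell death, 1 supplies nucleotides for repair, and some act on signalling and polarity at the cell cortex.

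A response element of the p53 family consists of a pair of decamers, each with purines, a C, A or T bases, a G and pyrimidines, which read the same on both strands. The RefSeq promoters of GRCm38.p6, which run from 250 bases before to 50 bases after a gene's start, were available for 6 of the members, namely Ccng1, Phlda3, Aen, Pidd1, Ei24 and Ptpn14. They were searched for the p53 decamer without a mismatch and for the best pair of decamers at most 13 bases apart. Of the 6 members, 3 held a decamer without a mismatch, and of all 32851 promoters of this length 8.36% did. The promoter of Ccng1 held the closest pair, with no bases between the decamers and 1 mismatch in all, at chr11:40755462-40755481 on the minus strand. It starts 195 bases before the RefSeq start, and it lies 151 bases outside the gene in the GENCODE annotation. A pair with 1 mismatch or fewer occurred in 0.627% of all promoters. The best pair of Aen, at chr7:78895937-78895956 on the plus strand in an annotated exon, had 3 mismatches, which 15.6% of promoters reached or bettered. Ei24 held a single matching decamer at chr9:36797335-36797344 on the minus strand, in an annotated exon, and its best pair had 4 mismatches. The best pairs of Phlda3, Pidd1 and Ptpn14 had 5 mismatches, which 68.7% of promoters reached or bettered. The stretches with the matches are shown from 5′ to 3′ on the strand of the gene, with the pair, or for Ei24 the single decamer, in capitals. These matches describe letters in a window and say nothing of binding in these cells.
Ccng1: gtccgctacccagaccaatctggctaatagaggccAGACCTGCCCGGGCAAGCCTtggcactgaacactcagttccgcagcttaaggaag
Aen: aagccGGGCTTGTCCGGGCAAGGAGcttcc
Ei24: ggcccGGGCATGCCCagtgt

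The libraries held between 15709549 and 30430104 estimated reads, with the fewest in replicate 2 of 0 h at 0.5 Gy. Levels are given as CPM, the reads of a gene relative to all reads of the library, scaled between libraries with TMM. All 14 oocyte markers of a list were detected in every library, and their summed level was 3898 to 5337 CPM in the 0 and 1 h libraries of 0.5 Gy and 4092 to 4833 CPM in the later ones. All 31 markers of other cell types were detected in every library as well. In the early and the late libraries of 0.5 Gy the 10 granulosa markers summed to 1392 to 2110 and 1529 to 2045 CPM. The 7 stroma and theca markers summed to 1597 to 2327 and 1517 to 1974 CPM, the 4 endothelial markers to 83.3 to 126 and 63.0 to 111 CPM and the 6 immune markers to 51.5 to 255 and 49.8 to 81.9 CPM. The 4 haemoglobin genes of red cells summed to 2363 to 3506 and 2656 to 6111 CPM. The immune maximum was in replicate 2 of 0 h. At 0.2 Gy the oocyte markers summed to 3322 to 4909 CPM, the granulosa markers to 1256 to 2173 and the stroma and theca markers to 1170 to 2160. The endothelial markers summed to 70.6 to 96.0 CPM and the immune markers to 37.3 to 54.8. The haemoglobin genes at 0.2 Gy ran from 850 CPM at 2.5 h to 4140 CPM at 4 h, each in a single library. The part of these cells in the results was not tested, and in bulk samples fewer cells of a type and less RNA per cell cannot be told apart.

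Between genes, levels were compared in TPM, which takes the length of transcripts into account. In the 4 libraries of 0 and 1 h at 0.5 Gy, Ccng1 lay at 4.32 to 10.3 TPM, Ei24 at 4.21 to 7.97, Trp53inp1 at 3.47 to 9.48 and Rrm2b at 4.43 to 17.4, so these 4 genes overlapped. Pard6g followed with 1.88 to 4.07 TPM and Phlda3 with 1.23 to 2.07. Ptpn14 at 0.761 to 1.40 TPM, Zmat3 at 0.506 to 0.907 and Pidd1 at 0.450 to 1.00 were the lowest and overlapped each other. Aen stood at 177 to 259 TPM, most of it from a single short noncoding transcript that is described further on, and its main coding transcript Aen-201 at 1.63 to 3.40. In the libraries from 2.5 h on at 0.5 Gy, Ccng1 was at 21.8 to 34.5 TPM, above the 9.82 to 17.6 of Trp53inp1, with which it had overlapped before.

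At 0.5 Gy, 4 of the 10 members rose and 0 fell when the 4 late libraries, from 2.5, 4 and 6 h, were compared with the 4 early ones, from 0 and 1 h. These were Ccng1, Trp53inp1, Phlda3 and Pard6g, with increases between 2.51-fold and 6.60-fold. Throughout, a call needed a Benjamini-Hochberg adjusted p below 0.05 over all genes tested, 22588 in this comparison, together with a log2 fold change beyond 1 in either direction, in edgeR's quasi-likelihood test. Of those genes 0.128% were called higher and 0 lower. The median log2 fold change was 1.27 over the 10 members and -0.02 over all genes tested. DESeq2's Wald test was used with its default filter, so its p-values were adjusted over the genes that this filter left. It called 6 members, the same 4 with Zmat3 and Pidd1, and 0.691% of genes higher. In contrast, limma on log2(TPM + 1) called 0 members and 1 gene in all. In 7 of the 10 members every late library lay above every early one, which was so for 2.67% of all genes. Each side mixes time points, so its libraries are no replicates of 1 condition, and the labels do not say whether replicates came from separate cultures, so the p-values measure the spread between these libraries only. The plot of CPM by time and dose shows each library.

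**Figure D1:**
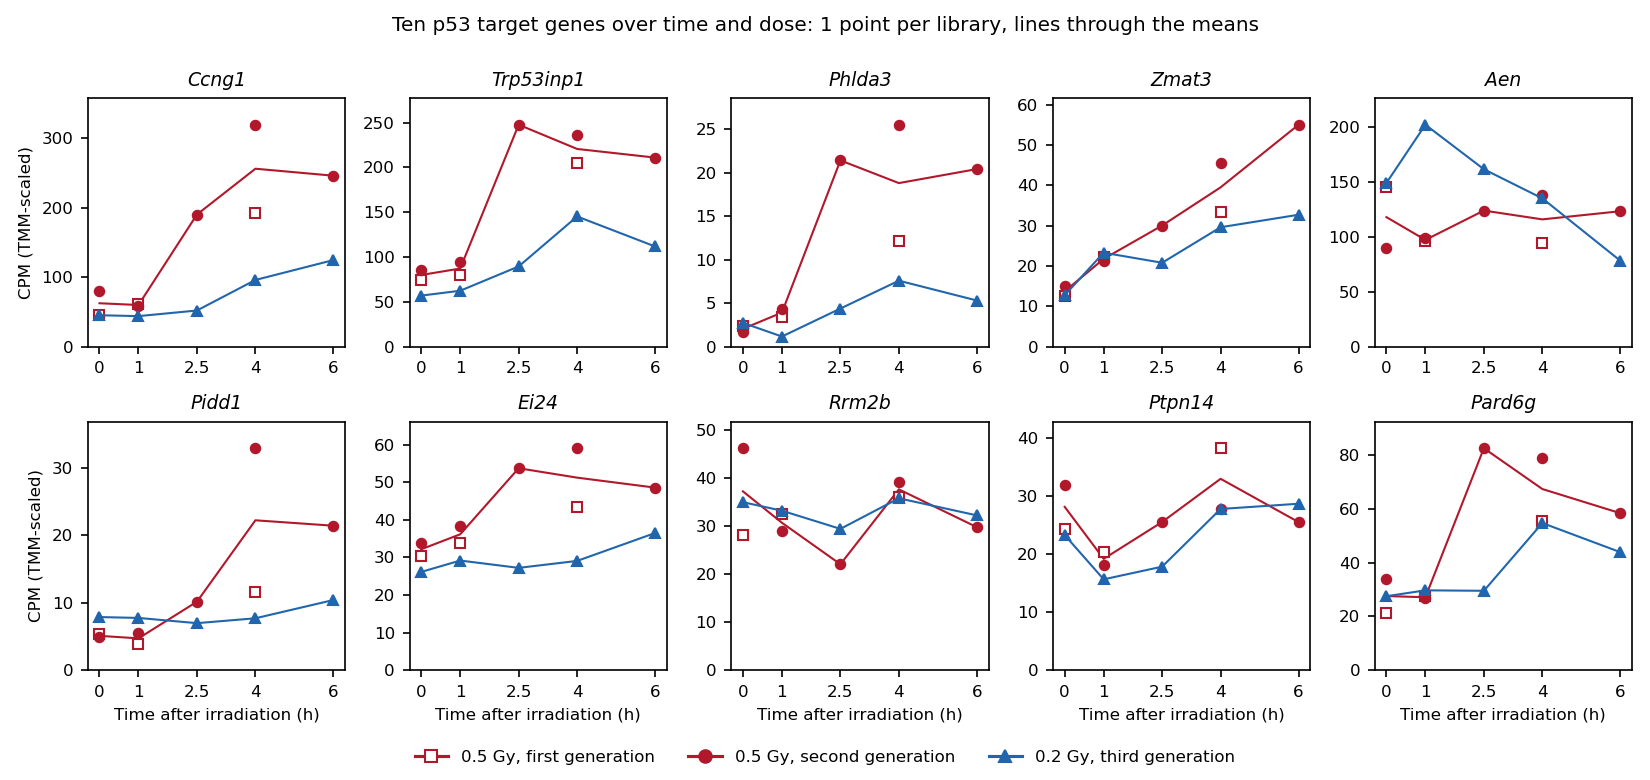
CPM of the 10 members (y axis, scaled with TMM) against hours after irradiation (x axis), with 1 point per library, red for 0.5 Gy, blue for 0.2 Gy, a symbol per generation and lines through the means. Ccng1, Trp53inp1, Phlda3 and Pard6g stand above all their 0 and 1 h values from 2.5 h on at 0.5 Gy, while Rrm2b and Ptpn14 do not separate.

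Ccng1 encodes cyclin G1, which brings the phosphatase PP2A to Mdm2 and so feeds back on p53. At 0.5 Gy the 0 h libraries had 45.0 and 79.7 CPM, the 1 h libraries 61.0 and 58.6 CPM, the 2.5 h library 190.1 CPM, the 4 h libraries 193 and 319 CPM and the 6 h library 246 CPM. The late libraries were all above the early ones, and the highest was replicate 2 of 4 h. The mean went from 61.1 ± 14.3 (SD, n = 4) to 237 ± 60.6 CPM (SD, n = 4), a log2 fold change of 1.95 (SE 0.22, edgeR adjusted p = 0.00471). Ccng1 remained called when any 1 of the 8 libraries was left out, with log2 fold changes from 1.77 to 2.11. Among the 6 members with a promoter to search, that of Ccng1 held the closest match to the response element. A link between this match and the rise was not tested.

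Trp53inp1 encodes a stress-induced protein that promotes the phosphorylation of p53 and takes part in autophagy and cell death. It had 74.5 and 85.2 CPM (0 h), 79.5 and 94.7 CPM (1 h), 248 CPM (2.5 h), 205 and 236 CPM (4 h) and 211 CPM (6 h). Its highest value was thus already that of 2.5 h, and the early and late libraries were far apart relative to their spread, with 83.5 ± 8.64 CPM against 225 ± 20.4 CPM (SD, n = 4 each). The log2 fold change was 1.42 (SE 0.14, edgeR adjusted p = 0.00362) and stayed between 1.37 and 1.50 without any 1 library, where the gene was called each time. With sums scaled for the length of the transcripts in use it was 1.24 (SE 0.27, edgeR adjusted p = 0.230), and the call was lost.

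Phlda3, a small protein with a pleckstrin homology domain that competes with Akt for membrane lipids and so inhibits it, showed the largest change of the 10. It had 2.39 and 1.69 CPM (0 h), 3.45 and 4.37 CPM (1 h), 21.4 CPM (2.5 h), 12.1 and 25.5 CPM (4 h) and 20.4 CPM (6 h). It was also the member with the fewest reads at the start, 59 and 25 estimated reads at 0 h against 310 to 672 in the late libraries. The log2 fold change was 2.72 (SE 0.35, edgeR adjusted p = 0.0102). The call was lost, at unchanged direction, without replicate 1 of 0 h (adjusted p = 0.0560), without replicate 2 of 4 h (adjusted p = 0.0593) and without the 6 h library (adjusted p = 0.0566), with log2 fold changes of 2.63, 2.58 and 2.71.

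Pard6g encodes a Par6 protein of the complex that sets up cell polarity. It had 21.1 and 34.0 CPM (0 h), 27.4 and 26.8 CPM (1 h), 82.5 CPM (2.5 h), 55.6 and 79.1 CPM (4 h) and 58.4 CPM (6 h). As for Trp53inp1, the 2.5 h library held the highest value and no late library reached down to the early ones. The log2 fold change was 1.33 (SE 0.20, edgeR adjusted p = 0.0308), and it was 1.23 to 1.46 without any 1 library. The call held without replicate 2 of 0 h or replicate 1 of 4 h and was lost in the other 6 such fits, at adjusted p-values of 0.0854 without replicate 1 of 0 h, 0.100 and 0.0803 without replicates 1 and 2 of 1 h, 0.0960 without 2.5 h, 0.148 without replicate 2 of 4 h and 0.0748 without 6 h.

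A further 3 members had late libraries that were all above the early ones but were not called. Zmat3 encodes a zinc finger protein that binds RNA and acts on splicing. It had 12.5 and 14.9 CPM (0 h), 22.3 and 21.2 CPM (1 h), 30.0 CPM (2.5 h), 33.5 and 45.5 CPM (4 h) and 55.1 CPM (6 h), so that its values at each later time point were above those of the time point before. Its log2 fold change of 1.20 (SE 0.25) had an edgeR adjusted p of 0.136, and 0.00157 in DESeq2's Wald test. Pidd1 encodes the scaffold of the PIDDosome, which activates caspase-2. It had 5.30 and 4.86 CPM (0 h), 3.85 and 5.56 CPM (1 h), 10.1 CPM (2.5 h), 11.5 and 32.9 CPM (4 h) and 21.4 CPM (6 h). The replicates of 4 h, which belong to different generations, were further apart than the 2.5 h library was from the early ones. The log2 fold change of 1.95 (SE 0.37) had an edgeR adjusted p of 0.0936, and 4.32e-05 in DESeq2's Wald test. Ei24, an endoplasmic reticulum protein of autophagy and cell death, went from 30.4 to 38.4 CPM in the early libraries to 43.4 to 59.1 CPM in the late ones, a log2 fold change of 0.58 (SE 0.16, edgeR adjusted p = 0.313).

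The last 3 members did not separate early from late libraries at 0.5 Gy. Rrm2b encodes the p53-inducible small subunit of ribonucleotide reductase. It ranged from 28.2 to 46.1 CPM early and from 22.0 to 39.1 CPM late, with a log2 fold change of -0.11 (SE 0.23, edgeR adjusted p = 0.927) that changed sign with the way the reads were summed. Of its 30-base sequences 14.7% also occur in other genes, the highest share among the members, and its level is uncertain to that extent. Ptpn14, a tyrosine phosphatase that restrains Yap, ranged from 18.0 to 31.9 CPM early and from 25.5 to 38.2 CPM late (log2 fold change 0.30, SE 0.23, edgeR adjusted p = 0.728). Aen, an exonuclease that acts in p53-dependent apoptosis, ranged from 90.1 to 145 CPM early and from 93.8 to 138 CPM late when all its transcripts were summed (log2 fold change 0.15, SE 0.19, edgeR adjusted p = 0.852).

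The sum of Aen was made up mostly of a single transcript. Aen-206, annotated as a processed transcript of 393 bases, held 72.4% of the reads of the gene, and 39.0% of its 30-base sequences occur in other genes too, so reads of other genes can be counted there. It had 1054 to 3181 estimated reads in the early libraries of 0.5 Gy and 1465 to 2011 in the late ones, which overlap. The coding transcript Aen-201 had 242 and 212 estimated reads (0 h), 370 and 492 (1 h), 900 (2.5 h), 594 and 1021 (4 h) and 997 (6 h), and here all late libraries were above the early ones. After these values were seen, the members' sums were made again without transcripts of which over 30% of the 30-base sequences occur in other genes. For Aen this left out Aen-206 and Aen-208. Aen then had 12.1 and 16.2 CPM (0 h), 19.1 and 20.6 CPM (1 h), 41.6 CPM (2.5 h), 33.1 and 53.5 CPM (4 h) and 45.5 CPM (6 h). The mean of the late libraries was 43.4 ± 8.46 CPM against 17.0 ± 3.79 CPM in the early ones (SD, n = 4 each), and the log2 fold change was 1.34 (SE 0.22, edgeR adjusted p = 0.0432), where 0.133% of genes were called higher. Over protein-coding transcripts, which include Aen-208, it was 1.14 (SE 0.22, edgeR adjusted p = 0.110). The result for Aen thus depended on which of its transcripts were counted. No other member gained a call at 0.5 Gy in either of these sums.

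**Figure D2:**
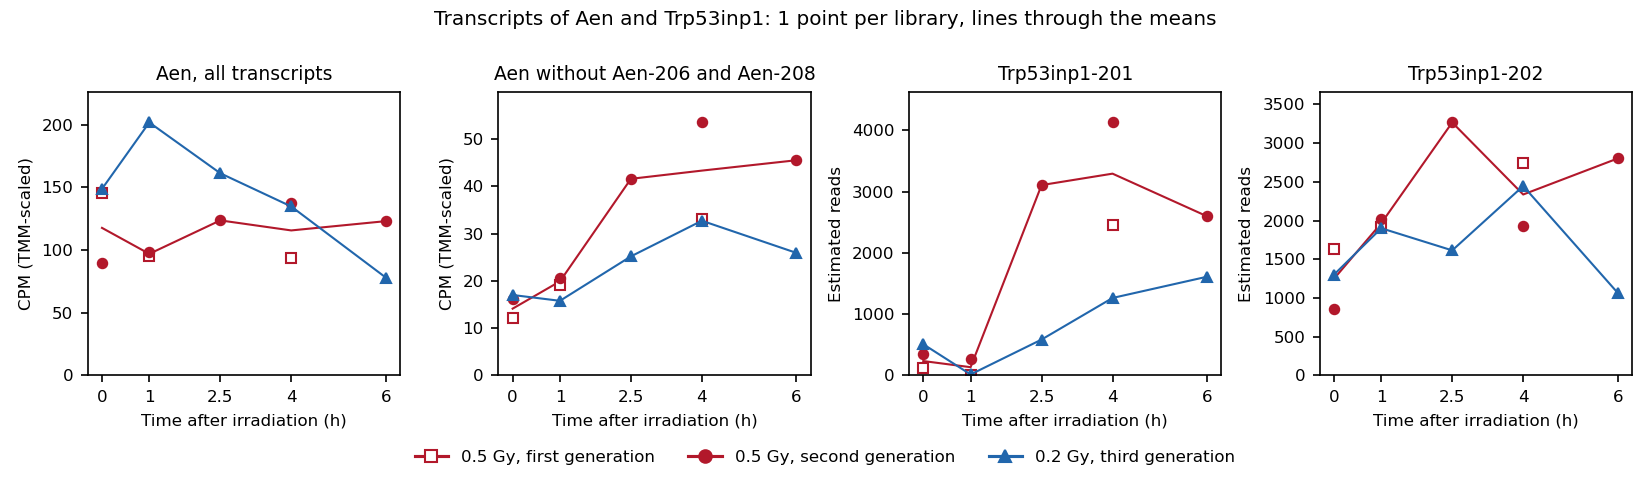
CPM of Aen over all transcripts and without its transcripts Aen-206 and Aen-208 (2 left panels), and estimated reads, not scaled for depth, of Trp53inp1-201 and Trp53inp1-202 (2 right panels), against hours after irradiation, with colours and symbols for dose and generation and lines through the means. Without the 2 transcripts all late libraries of Aen at 0.5 Gy, from 33.1 to 53.5 CPM, lie above the early ones, from 12.1 to 20.6 CPM.

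Trp53inp1 was assigned mainly to a coding transcript, Trp53inp1-201 of 5404 bases, and a noncoding one, Trp53inp1-202 of 5432 bases. The coding transcript had 1 to 354 estimated reads in the early libraries of 0.5 Gy and 2457 to 4127 in the late ones, and the noncoding one 862 to 2018 and 1936 to 3268. The share of the gene's reads on the coding transcript was 0.05% to 28.1% early and 46.2% to 66.3% late, without overlap. Only 39 and 29 of their 30-base sequences occur in no other transcript of the gene. The split is therefore uncertain and is given without a test. Restricted to protein-coding transcripts, Trp53inp1 had a log2 fold change of 3.59 (SE 0.85, edgeR adjusted p = 0.208) and was not called.

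In Phlda3 the coding Phlda3-201 held 79.7% of all reads, with 52.1% to 75.3% in the early libraries of 0.5 Gy and 76.0% to 84.8% in the late ones. In Ccng1 the coding Ccng1-201 held 90.0%, in Zmat3 the 3 coding transcripts 91.9% and in Ei24 the 4 coding transcripts 92.7%. Pard6g has a single annotated transcript, of 3143 bases. The reads of Pidd1, in contrast, were assigned to transcripts annotated with a retained intron (50.4%) or for nonsense-mediated decay (41.7%), and 5.93% to coding ones. The number of 30-base sequences that a transcript of Pidd1 shares with no other ranged from 0, in Pidd1-210 and others, through 26 in Pidd1-203 to 555 in Pidd1-207. Levels of Pidd1 are given for the gene's sum. Its coding transcripts alone had 1.37 CPM in replicate 1 of 0 h and 1.35 CPM at 2.5 h of 0.5 Gy. They had 0 CPM in the other libraries of this dose. The rise of the sum was thus not seen on the coding transcripts, whose share is uncertain.

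Against 0 h alone, taking the time points of 0.5 Gy singly in 1 edgeR fit of the 8 libraries, no member was called at any time point and neither was any other of the 28468 genes tested (0% called). Before adjustment, p was under 0.05 for 0 members at 1 h, where it was for 3.98% of all genes, for 5 members at 2.5 h (5.59%), for 7 at 4 h (5.82%) and for 6 at 6 h (5.94%). DESeq2's Wald test on the same counts called 5 members at some time point, with or without its beta prior. Without the prior these were Trp53inp1 and Phlda3 at 2.5 h (0.183% of genes called higher), Ccng1, Trp53inp1, Phlda3, Zmat3 and Pidd1 at 4 h (0.372%), and Ccng1, Trp53inp1, Phlda3 and Zmat3 at 6 h (0.316%). limma on log2(TPM + 1) called 0.

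At 1 h the log2 fold changes over 0 h ran from -0.54 for Ptpn14 to 0.95 for Phlda3 with standard errors from 0.25 to 0.52. Zmat3 had the smallest p at 1 h (log2 fold change 0.69, SE 0.31, edgeR unadjusted p = 0.0516 and adjusted p = 1). At 2.5 h Phlda3 had a log2 fold change of 3.40 (SE 0.55), Trp53inp1 of 1.65 (SE 0.30), Ccng1 of 1.63 (SE 0.42) and Pard6g of 1.60 (SE 0.38). At 6 h these were 3.36 (SE 0.55), 1.44 (SE 0.30), 2.02 (SE 0.41) and 1.13 (SE 0.38). For Phlda3, Trp53inp1 and Ccng1 the values of 2.5 and 6 h differed by less than their standard errors. Pidd1 and Zmat3 had log2 fold changes of 1.02 (SE 0.61) and 1.15 (SE 0.36) at 2.5 h and of 2.12 (SE 0.61) and 2.05 (SE 0.36) at 6 h. The differences between these time points were not tested.

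Of the members, 7 stood higher at 4 h than at 0 h in both generations. The share of all genes that did so was not counted, so this number has no background to be set against. In the first generation the 4 h library stood at 4.28 times the 0 h library for Ccng1, 2.75 times for Trp53inp1, 5.06 times for Phlda3, 2.63 times for Pard6g, 2.68 times for Zmat3, 2.18 times for Pidd1 and 1.43 times for Ei24. In the second generation the same ratios were 4.01, 2.78, 15.1, 2.33, 3.05, 6.77 and 1.74. The generations were thus close for Ccng1, Trp53inp1, Pard6g and Zmat3 and apart for Phlda3 and Pidd1, with a single pair of libraries behind each ratio. Rrm2b stood at 1.28 times in the first generation and 0.848 times in the second, Ptpn14 at 1.57 and 0.868 times, and Aen, over all transcripts, at 0.645 and 1.53 times.

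At 2.5 h alone, set against 0 and 1 h together in a fit of all 13 libraries, Trp53inp1 was called at 0.5 Gy (log2 fold change 1.57, SE 0.20, edgeR adjusted p = 0.0486), and 0.0064% of the 31254 genes tested were called higher. This call sat just inside the threshold. It held without replicate 1 of 4 h at 0.5 Gy and without the 2.5 h library of 0.2 Gy, and 0 members were called without either replicate of 0 or 1 h, replicate 2 of 4 h or the 6 h library at 0.5 Gy, or without the 0, 1, 4 or 6 h library of 0.2 Gy. The next members were Pard6g (1.60, SE 0.26, edgeR adjusted p = 0.129), Ccng1 (1.64, SE 0.28, edgeR adjusted p = 0.139) and Phlda3 (2.84, SE 0.51, edgeR adjusted p = 0.143), all of which DESeq2's Wald test called, with 0.106% of genes higher. At 0.2 Gy no member was called at 2.5 h by edgeR, DESeq2 or limma, where edgeR called 0.016% of genes higher. Before adjustment p was under 0.05 for 1 member, Trp53inp1, and for 4.59% of all genes. At this dose the 2.5 h library had 51.9 CPM of Ccng1 against 45.1 and 43.8 CPM at 0 and 1 h, and 29.5 CPM of Pard6g against 27.5 and 29.7 CPM.

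The difference between the doses at 2.5 h was positive for 9 of the 10 members, as it was for 50.5% of all genes, and no member passed the adjusted threshold in edgeR, DESeq2 or limma (0% of genes called higher by edgeR). Before adjustment p was under 0.05 for 5.18% of all genes and for 3 members, Pard6g (log2 difference 1.55, SE 0.43, edgeR adjusted p = 0.929), Ccng1 (1.42, SE 0.47, edgeR adjusted p = 0.929) and Trp53inp1 (0.98, SE 0.33, edgeR adjusted p = 0.929). A single library of each dose stands behind 2.5 h.

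At 0.2 Gy no member passed the threshold when the 4 and 6 h libraries were compared with those of 0 and 1 h, although the levels of several members were higher. Of the 28162 genes tested by edgeR with 11 libraries from the 2 doses fitted together, 0.0355% were called higher. Before adjustment p was under 0.05 for 6 members, of which Aen was lower, and for 7.29% of all genes. DESeq2's Wald test called Ccng1 and Trp53inp1, with 0.273% of genes higher, while limma on log2(TPM + 1) called 0. The median log2 fold change of the members was 0.65, against -0.03 over all genes. For 6 members both late libraries were above both early ones, which was so for 19.5% of all genes.

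Ccng1 had 45.1, 43.8, 51.9, 95.9 and 125 CPM at 0.2 Gy, from the earliest time point to the latest, a log2 fold change of 1.30 (SE 0.29, edgeR adjusted p = 0.273). Trp53inp1 had 56.9, 62.3, 89.4, 145 and 112 CPM, a log2 fold change of 1.10 (SE 0.20, edgeR adjusted p = 0.102). Phlda3 had 2.72, 1.15, 4.37, 7.57 and 5.29 CPM, a log2 fold change of 1.72 (SE 0.54, edgeR adjusted p = 0.608). Ccng1 was highest at 6 h, and Trp53inp1 and Phlda3 were highest at 4 h, each in a single library.

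Pard6g had 27.5, 29.7, 29.5, 54.7 and 43.9 CPM over the same time points, with a log2 fold change of 0.77 (SE 0.26, edgeR adjusted p = 0.638). Zmat3 had 12.8, 23.3, 20.8, 29.6 and 32.7 CPM, with 0.78 (SE 0.36, edgeR adjusted p = 0.683). Pidd1 stayed between 6.96 and 10.4 CPM, Ei24 between 26.1 and 36.5 CPM and Rrm2b between 29.4 and 35.7 CPM. Ptpn14 had 23.2, 15.6, 17.8, 27.7 and 28.6 CPM, with a log2 fold change of 0.52 (SE 0.32, edgeR adjusted p = 0.746). Aen had 149, 202, 161, 135 and 78.1 CPM over all transcripts, a log2 fold change of -0.73 (SE 0.31, edgeR adjusted p = 0.667), but 17.0, 15.8, 25.2, 32.7 and 25.9 CPM without Aen-206 and Aen-208, a log2 fold change of 0.83 (SE 0.30, edgeR adjusted p = 0.645), so that its direction turned.

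**Figure D3:**
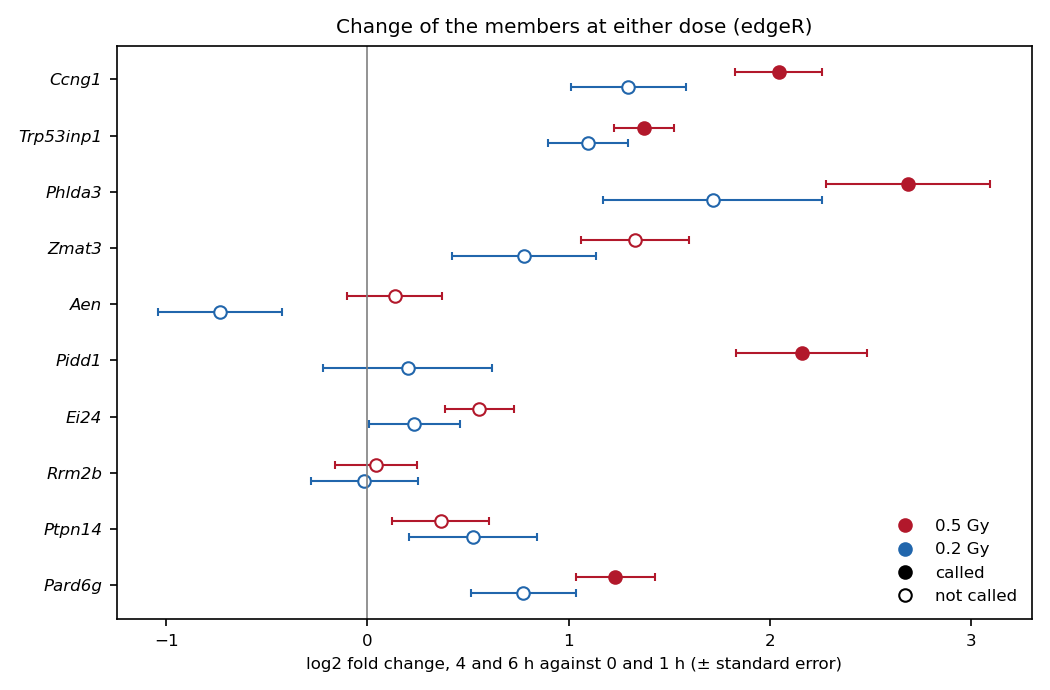
Log2 fold change with its standard error (x axis) of the 4 and 6 h libraries against those of 0 and 1 h, for each member (y axis) at 0.5 Gy (red) and 0.2 Gy (blue), from 1 edgeR fit of 11 libraries. Filled points were called, which were 5 members at 0.5 Gy and 0 at 0.2 Gy, and the largest gap between the doses is that of Pidd1, at 2.16 and 0.20.

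In this fit 5 members were called at 0.5 Gy for 4 and 6 h against 0 and 1 h, where 0.124% of genes were called higher. These were Ccng1 (log2 fold change 2.04, SE 0.22, edgeR adjusted p = 0.00244), Trp53inp1 (1.38, SE 0.15, edgeR adjusted p = 0.00244), Phlda3 (2.69, SE 0.41, edgeR adjusted p = 0.0276), Pidd1 (2.16, SE 0.33, edgeR adjusted p = 0.0253) and Pard6g (1.23, SE 0.20, edgeR adjusted p = 0.0373). The call of Pidd1 is for the gene's sum, of which 5.93% was assigned to coding transcripts, where no rise was seen. Ccng1 and Trp53inp1 were called when any 1 of the 11 libraries was left out. They were the only 2 members called without replicate 1 of 0 h, either replicate of 1 h, replicate 2 of 4 h or the 6 h library of 0.5 Gy, and 3 members were called without replicate 2 of 0 h at 0.5 Gy or the 0 or 1 h library of 0.2 Gy. With length-scaled sums 1 member, Ccng1, was called, with 0.0639% of genes higher, and limma called 0. The test of the difference between doses called 0 members in edgeR, DESeq2 and limma, and edgeR called 0.0071% of genes higher at 0.5 Gy. Before adjustment p was under 0.05 in edgeR for 2 members, Pidd1 and Aen, and for 8.14% of all genes. The log2 difference of Pidd1 was 1.96 (SE 0.53, edgeR adjusted p = 0.502), with 3.85 to 5.56 CPM early and 11.5 to 32.9 CPM at 4 and 6 h of 0.5 Gy against 7.74 to 7.86 CPM and 7.68 to 10.4 CPM at 0.2 Gy. For Ccng1 the difference was 0.75 (SE 0.35, edgeR adjusted p = 0.612), for Phlda3 0.97 (SE 0.67, edgeR adjusted p = 0.717), for Trp53inp1 0.28 (SE 0.25, edgeR adjusted p = 0.779) and for Pard6g 0.46 (SE 0.33, edgeR adjusted p = 0.729).

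Other genes that are listed as p53 targets were counted as a comparison, also chosen with earlier results of these data known. Of 44 such genes, all tested, 8 were called higher late against early at 0.5 Gy and 0 lower, with a median log2 fold change of 0.87, against 1.27 for the members. The largest rises were those of Pmaip1, which encodes the BH3-only protein Noxa (log2 fold change 3.42, SE 0.51, edgeR adjusted p = 0.0301), and Cdkn1a, the cell cycle inhibitor p21 (3.32, SE 0.36, edgeR adjusted p = 0.00362). The lowest values were -0.36 for Gadd45a (SE 0.26, edgeR adjusted p = 0.711) and -0.29 for Btg1 (SE 0.30, edgeR adjusted p = 0.815), neither of which passed the test. At 0.2 Gy, at 2.5 h and in the differences between doses 0 of the 44 were called by edgeR, with medians of 0.37 for 4 and 6 h at 0.2 Gy and 0.34 for its difference from 0.5 Gy.

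Among themselves the members did not all run in parallel over the 13 libraries. The Pearson correlation of a member's log2 CPM with the mean standardised profile of the other 9 was 0.97 for Ccng1, 0.92 for Pard6g, 0.91 for Trp53inp1, 0.86 for Phlda3, 0.85 for Pidd1, 0.81 for Zmat3 and 0.78 for Ei24. It was 0.48 for Ptpn14, -0.07 for Rrm2b and -0.27 for Aen with all transcripts. The libraries share time points, doses and generations, so these values describe likeness only.

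Apart from the members, the genes whose log2 CPM ran most like the members' mean profile over the 13 libraries were Mdm2 (Pearson r = 0.94), Gtse1 (0.93), Ckap2 (0.93), Polk (0.93) and Igfals (0.92). Mdm2, Gtse1, Ckap2 and Polk are among the 44 other p53 targets counted above, and Igfals is not. Mdm2 encodes the ubiquitin ligase of p53, Gtse1 and Ckap2 encode microtubule-associated proteins, Polk encodes a translesion DNA polymerase and Igfals a serum protein that binds IGF complexes. Mdm2 had 58.1 and 64.0 CPM at 0 h of 0.5 Gy and 589 CPM at 6 h. Igfals was at 0.373 to 0.810 CPM in the 4 early libraries of 0.5 Gy and at 5.03 to 12.6 CPM in the 4 late ones.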

How the data were processed

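Oocyte RNA was copied to cDNA with the SMARTER kit and sequenced as reads of 30 bp, which can leave related transcripts indistinguishable. The protocol calls the reads paired-end, while the design text of the series calls them single-end. The authors ran salmon on Ensembl transcripts of GRCm38 and deposited the estimated count, TPM and effective length of 130740 transcripts for every library, without scaling between libraries or a filter. Tables in which the authors deposited fold changes and p-values against 0 h, made with DESeq2 1.24.0, and a merged table of the series were not used.

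Estimated counts were added up per GENCODE gene by transcript identifier, ignoring versions, and rounded. A total of 402 transcripts found no gene, and held no more than 0.495% of reads in each library. A count of 0 allows up to 3 reads by counting error alone. The sums were scaled with TMM, filtered with filterByExpr and fitted by quasi-likelihood in edgeR 4.0.16 under R 4.3.3. DESeq2 1.42.0 and limma 3.58.1 served as alternatives, the latter on log2(TPM + 1), which understates the change of low genes. Of these steps, only some of the edgeR comparisons were tested on simulated data. Log2 CPM used a prior count of 2. Late against early at 0.5 Gy was fitted on 8 libraries, 4 and 6 h against 0 and 1 h with its difference between doses on 11, and 2.5 h on 13. Single libraries took their spread from the other groups.

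Sequences of 30 bases shared with other genes were counted in the GENCODE transcripts with Python 3.11.15. Named genes are the members, the 2 largest rises and the 2 lowest values among 44 other p53 targets late against early, and the 5 genes most like the members' mean profile. Members and lists were chosen with earlier results of these data known. Alternatives were other normalizations, filters, tests and gene sums, a block for the generation and leaving out each library.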

Additional observations from a re-analysis of the deposited data

Results flagged for a closer look

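The early and the late libraries of 0.5 Gy, 4 each, were examined for a library far from the others in each of the 10 members, 20 groups of values in all. Only the early libraries of Aen, with all transcripts summed, held such a value by Dixon's criterion, which chance meets in about 1 in 20 groups. Replicate 1 of 0 h had 145 CPM, and the gap to the next library was 0.849 of the range of the 4. In this library 88.5% of the reads of Aen were on Aen-206, the highest share of the 13 libraries, and without Aen-206 and Aen-208 it had 12.1 CPM, the lowest value of the 4.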

How the results depend on the processing

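Leaving out each library in turn gave 2 to 4 called members late against early and 2 to 5 for 4 and 6 h at 0.5 Gy, 0 to 1 at 2.5 h of 0.5 Gy, and 0 to 0 at 0.2 Gy, in the differences between doses and against 0 h. Ccng1 and Trp53inp1 were called late against early in all 8 of these fits. limma on log2(TPM + 1) called 0 members late against early. For 4 and 6 h at 0.5 Gy, 1 member was called with length-scaled sums (0.0639% of genes higher), 3 over protein-coding transcripts (0.135%) and 0 in limma. At 2.5 h of 0.5 Gy, 4 members were called by DESeq2's Wald test and 0 with RLE normalization, with length-scaled sums, over protein-coding transcripts and in limma. DESeq2 called 2 members at 0.2 Gy and 5 against 0 h, also 5 with its beta prior. The cause of these differences was not tested. Apart from the block for the generation, given next, the other alternatives kept the counts within 1.5 times those reported.

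With the generation as a block, 4 members were called late against early, 4 for 4 and 6 h at 0.5 Gy, where Phlda3 lost its call (edgeR adjusted p = 0.0512), 0 at 2.5 h of 0.5 Gy, and 0 at 0.2 Gy and in the differences between doses. With this block 0.0797% of genes were called higher late against early and 0.103% for 4 and 6 h at 0.5 Gy. On the late side, replicate 1 of 4 h was of the first generation and the other libraries of the second. The early side held both replicates of 0 and 1 h. The differences between replicates 1 and 2 correlated with r = 0.11 between 0 and 1 h, 0.07 between 0 and 4 h and 0.10 between 1 and 4 h over 31254 genes. The numbers were not taken to pair the libraries. These correlations include genes with few reads and do not test a shared effect of generation.

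Values near 0 changed sign, and so did larger ones of Pidd1 and, at 0.2 Gy, of Aen. For Rrm2b, late against early, the log2 fold change was 0.128 with length-scaled sums and 0.262 in limma, and -0.216 to 0.0911 without 1 library. At 0.2 Gy it was 0.0199 with RLE and in DESeq2, 0.0081 with a summed count of 10 or more, 0.122 without the transcripts with shared sequences, and -0.106 to 0.0698 without 1 library. For 4 and 6 h at 0.5 Gy it was -0.0443 to 0.251 without 1 library. Its difference between doses was -0.108 without those transcripts and -0.0278 to 0.276 without 1 library. For Aen the value was -0.0607 late against early with length-scaled sums, -0.0987 with these sums and -0.0514 in limma for 4 and 6 h at 0.5 Gy, and at 0.2 Gy it was 0.173 over protein-coding transcripts and 0.825 without the transcripts with shared sequences. For Pidd1 at 0.2 Gy it was -0.279 with length-scaled sums, -0.211 in limma and -0.0237 to 0.388 without 1 library. Over protein-coding transcripts, which held 5.93% of its reads, larger values of Pidd1 turned. Its 4 and 6 h value at 0.5 Gy, called over all transcripts, went from 2.16 to -6.23. Its difference between doses went from 1.96 to -6.30. On these transcripts Pidd1 had 0 CPM in the 4 and 6 h libraries of 0.5 Gy. For Ptpn14 the difference between doses was -0.521 to 0.0929 without 1 library. The alternative without transcripts with shared sequences, and all alternatives for 4 and 6 h at 0.5 Gy, were chosen after seeing the data. The single libraries of 2.5 and 6 h and of each time point of 0.2 Gy limit what could be detected.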
